A study of Mus musculus with 12 samples.

Results

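The mitochondrial respiratory chain genes described here are the nuclear genes for the subunits of complexes I to IV and of ATP synthase (complex V), together with the few assembly factors that carry the same name prefixes. They were taken from the gene table by symbol, as every entry starting with Nduf, Uqcr, Sdha, Sdhb, Sdhc, Sdhd, Cox4, Cox5, Cox6, Cox7, Cox8 or Atp5, without entries marked -ps. In total 94 of 24062 entries matched, and the 86 of them above 10 normalised counts in at least 3 of 12 libraries are the members. They are 86 of 11440 genes that passed that filter. By complex, 43 members belong to complex I (35 subunits and 8 assembly factors), 6 to complex II (4 subunits and 2 assembly factors), 8 to complex III, 14 to complex IV and 15 to complex V. Ndufa4 is counted with complex IV, where its protein is now placed, and Atp5sl, despite its symbol, with complex I, since it encodes an assembly factor of that complex (newer symbol Dmac2).

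Complexes I and II pass electrons from NADH and succinate to ubiquinone, complex III passes them to cytochrome c, and complex IV passes them to oxygen. Complexes I, III and IV pump protons across the inner mitochondrial membrane, and ATP synthase uses the return flow to make ATP. In macrophages the chain is known as a point of control during activation, since succinate oxidation at complex II, reverse electron flow through complex I and inhibitors such as nitric oxide and itaconate bear on inflammatory output.

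The cells were primary macrophages grown from the bone marrow of wild-type C57Bl/6 mice, at passage 1, and their mRNA was sequenced in 4 groups of 3 libraries each. One group had no stimulation, another had C-178, which blocks STING covalently, another had CMA, a compound that activates the mouse form of STING, and the last had C-178 and CMA together. STING is the adaptor through which cells sense DNA in the cytosol. The labels give 2 h of treatment and no doses, and they do not say whether replicates came from separate animals or cultures, so the p values measure the spread between these libraries, which may be technical. The labels name macrophages as the cell type of every sample, but their extraction text mentions mouse embryonic fibroblasts.

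All 9 macrophage markers in the table lay above 100 normalised counts in unstimulated cells, and their summed level ran from 337651 to 487541 over the 12 libraries, highest in a C-178+CMA library. Fibroblast markers were present at a low level, with 3 of 8 above 100 normalised counts. Their sums were 674 to 712 without stimulation, 876 to 990 with C-178, 860 to 1526 with CMA and 465 to 984 with both compounds, and 4 of 7 neutrophil markers were above 100, with sums of 594 to 1203 over all libraries. Lymphocyte markers summed to 24.5 to 34.2 without stimulation, 24.7 to 28.6 with C-178, 3.3 to 9.9 with CMA and 7.1 to 9.6 with both. The part of these cells in the results was not tested. The 5 muscle markers summed to at most 4.3 in any library, and the 3 red cell markers were at 0. The depth was 7.126 to 7.826 M reads in the CMA libraries, 13.907 to 17.449 M in the unstimulated ones, 7.049 to 28.476 M with C-178 and 7.766 to 36.438 M with both. Within both C-178 groups library 1 was the deep one. In bulk RNA, fewer cells of a type and less RNA per cell cannot be told apart. Because a pair of unstimulated columns carries the same heading, these libraries have the names 1, a and b here.

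Resting levels of the members were compared per kilobase of transcript, as mean normalised counts per kb over the 3 unstimulated libraries. Subunits of complex IV had the highest median, 998 per kb (14 genes), followed by complex V at 779 (14 genes), complex II at 724 (4 genes), complex III at 717 (8 genes) and complex I at 382 (35 genes). The median of the 10 assembly factors was 54.0 and that of all 11356 genes tested with a known length was 94.7. Cox8a, a small subunit of complex IV, stood highest at 3061 ± 685 per kb (SD, n = 3). Cox6a1 at 2722 ± 311, Cox4i1 at 2578 ± 377 and Cox7a2l, counted here with complex IV, at 2430 ± 265 followed. All 4, Cox8a included, were within their SDs of a neighbour in the order.

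**Figure D1:**
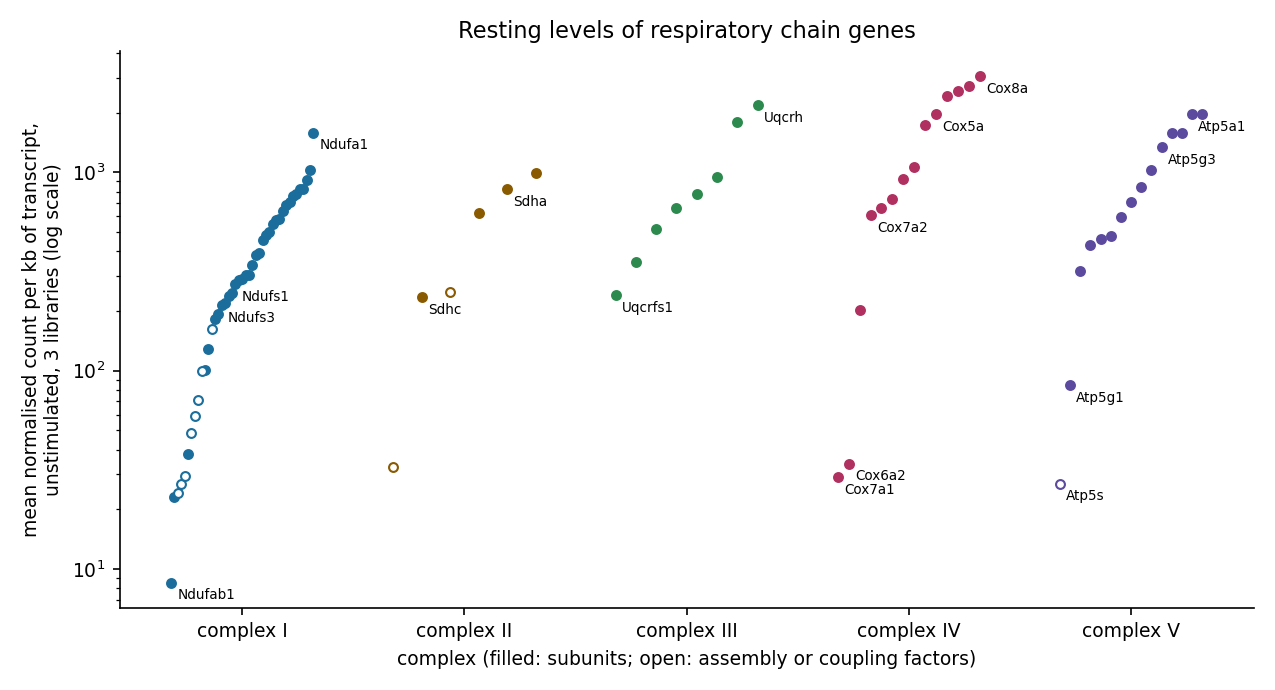
Mean normalised count per kb of transcript in the 3 unstimulated libraries (log scale) for each of the 86 members, ordered within its complex, with subunits filled and assembly or coupling factors open. Subunits of complex IV reach 3061 per kb, while the open points lie between 24.1 and 250 per kb.

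Within complexes the levels were unequal. The F1 subunits that form the catalytic sites, Atp5a1 and Atp5b, stood at 1972 ± 120 and 1974 ± 4.66 per kb. In complex II the iron-sulfur subunit Sdhb had 992 ± 32.4 and the flavoprotein subunit Sdha 822 ± 24.8, against 626 ± 67.0 for the membrane anchor Sdhd and 235 ± 15.96 for the other anchor, Sdhc. In complex III the hinge protein gene Uqcrh had 2181 ± 167 and the Rieske iron-sulfur protein gene Uqcrfs1 240 ± 8.52. In complex I the median of the 7 core subunits that nuclear genes encode was 305 per kb, and Ndufv1 stood at 192 ± 11.8. Transcript lengths are those of the principal GENCODE models, and a gene whose cells use a shorter form would have a higher level per kb than given.

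The isoforms known from muscle and other tissues were low or at 0. Cox6a2 and Cox7a1, the heart and skeletal muscle forms, had 33.9 ± 4.62 and 29.0 ± 15.1 per kb, against 2722 ± 311 for Cox6a1 and 610 ± 25.1 for Cox7a2, the ubiquitous forms. The filter left out 8 of the 94 entries. Of these, Cox4i2, a form linked to low oxygen, had 1.52, 4.18 and 3.16 normalised counts in unstimulated libraries 1, a and b, and Ndufa4l2 had 0.76, 1.19 and 0. Cox6b2 was at most 1.52 in any library. Cox7b2, Cox8b, Cox8c and Ndufs5 had no read in any library; 3 reads over the unstimulated group, the limit that a count of 0 allows, equal 0.656 normalised counts, and such limits cover counting error only.

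Ndufs5 and Atp5l, which encode constitutive subunits, thus stood at 0 and at 1.97 to 7.63 normalised counts in the libraries with any Atp5l read, and it had none in C-178+CMA library 3. Of the 50-base stretches of Atp5l transcripts, 84.8% also occur in transcripts of other genes, chiefly the processed pseudogene Gm10221, and of those of Ndufs5 22.9%, all in the pseudogene BC002163. The remaining stretches of Ndufs5 were found in no other gene. Why Ndufs5 had no read was not tested, and its 0 is not a finding that the gene is silent. Among the 86 members the median share was 1.0%, 39 shared none and 11 shared at least 30%, led by Atp5g2 at 87.4% and Sdhaf1 at 69.0%. The sources used here do not say how reads that fit several genes were counted, so levels of these 11 members are uncertain.

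Read across libraries, the members stood together mainly in 3 libraries. Against the mean of the unstimulated libraries, the median member differed by -0.04, 0.00 and 0.03 on the log2 scale in the unstimulated libraries themselves. It differed by -0.04, -0.44 and -0.11 in C-178 libraries 1, 2 and 3, and by 0.04, -0.09 and -0.08 in the CMA libraries. With both compounds it differed by 0.49, -0.03 and 0.56. C-178 library 2 was thus low, C-178+CMA libraries 1 and 3 were high, and C-178+CMA library 2 lay within the range of the unstimulated and CMA libraries. Of the 86 members, 38 had their highest value of all 12 libraries in C-178+CMA library 1 and 41 in C-178+CMA library 3, and 57 had their lowest in C-178 library 2. The members held 0.543% ± 0.00462 of all normalised counts without stimulation (SD, n = 3), 0.481% ± 0.0559 with C-178, 0.412% ± 0.0384 with CMA and 0.589% ± 0.124 with both. The lower share with CMA goes with a larger total. Summed over members, the counts were 57100, 57000 and 55200 without stimulation and 58700, 53700 and 54000 with CMA. Over all genes they were 10.573, 10.42 and 10.229 M without stimulation and 12.899, 14.064 and 13.585 M with CMA.

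**Figure D2:**
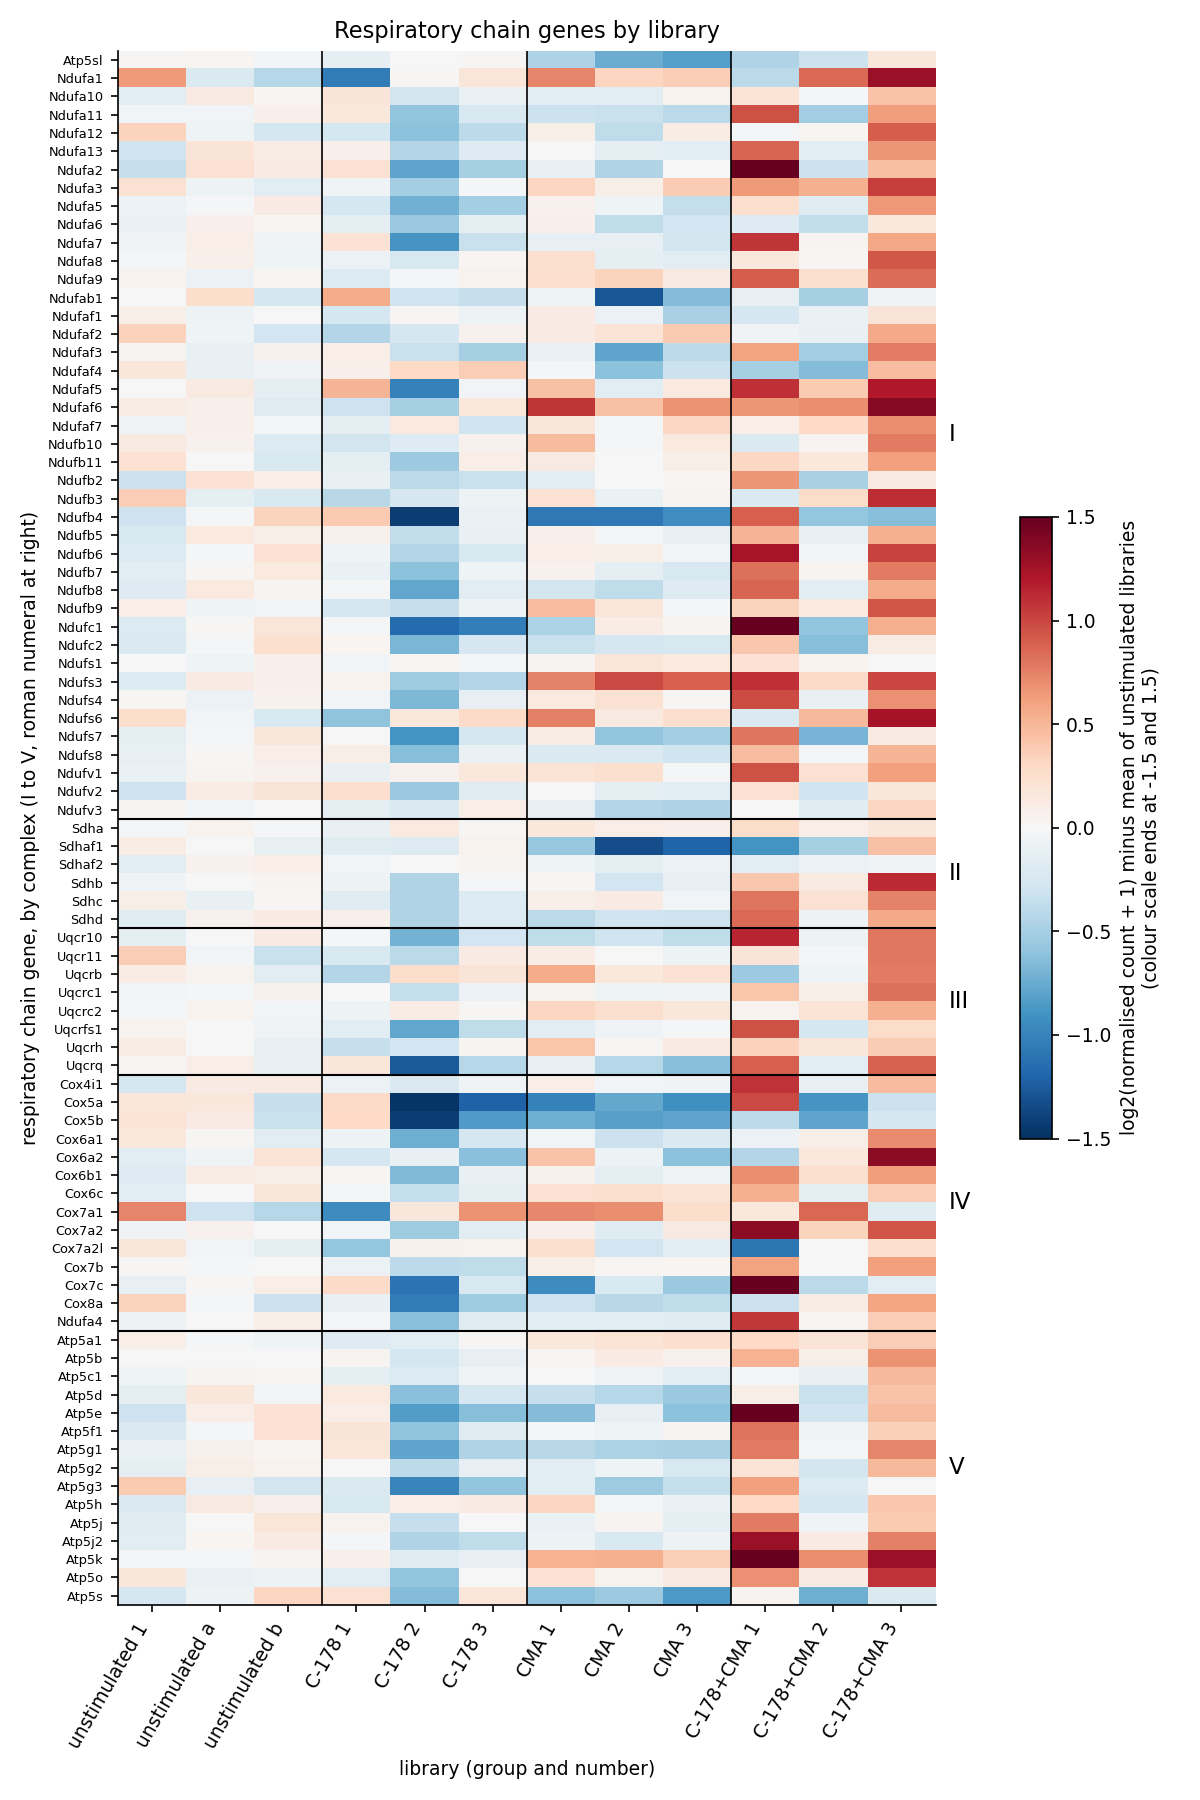
Each row is 1 of 85 of the 86 members, grouped by complex, and each column a library; colour gives log2(normalised count + 1) minus the mean of the unstimulated libraries. The columns of C-178+CMA libraries 1 and 3 are mostly red (65 and 77 of all 86 members above the unstimulated mean), while in C-178 library 2 only 14 of 86 lie above it.

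Other genes with short transcripts moved in the same libraries. The median transcript of the members has 932 bases, against 2898 for all genes tested. The 766 genes tested with transcripts of at most 1000 bases had medians of -0.33 in C-178 library 2 and of 0.32, -0.07 and 0.43 in C-178+CMA libraries 1, 2 and 3. Genes with transcripts over 4000 bases had medians of 0.19 in C-178 library 2 and of -0.11, 0.10 and -0.37 in C-178+CMA libraries 1, 2 and 3. The part of transcript length in the results below was not tested, and the values for genes of like length are given beside them. All 5 complexes followed the pattern, with medians in C-178+CMA library 3 of 0.61 for complex I, 0.50 for II, 0.79 for III, 0.42 for IV and 0.48 for V.

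**Figure D3:**
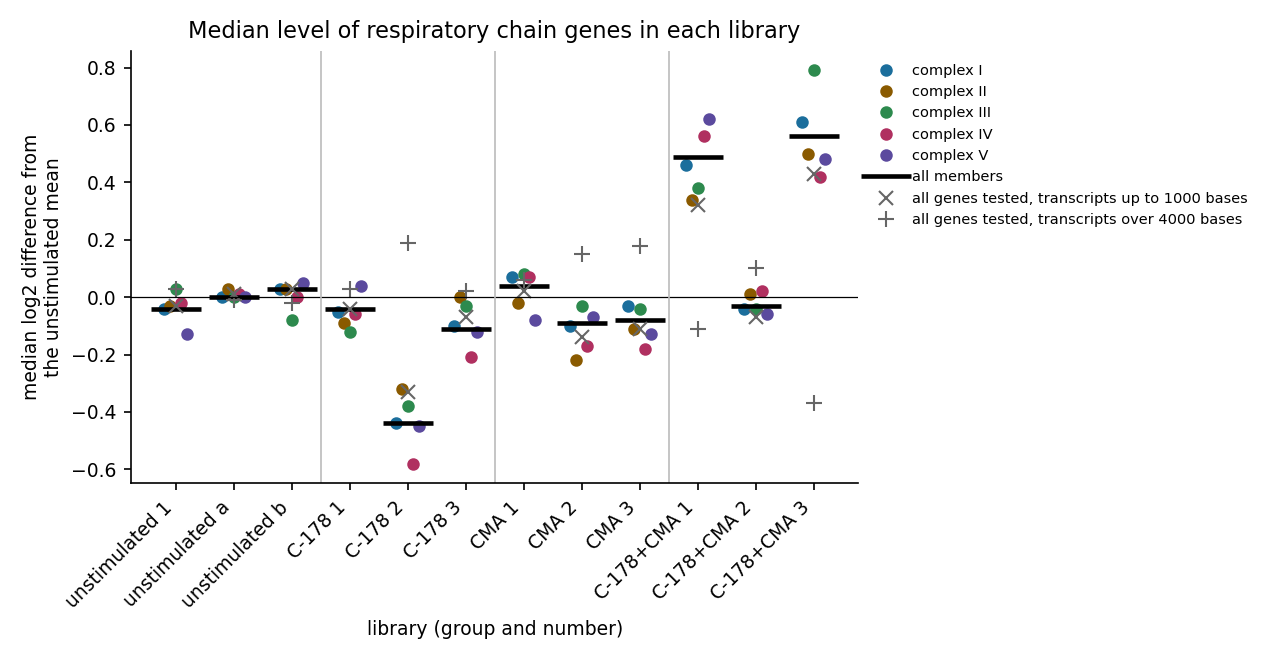
Median log2 difference from the unstimulated mean in each library, for the members of each complex (coloured points), all 86 members (black bars) and all genes tested with short (crosses) or long (plus signs) transcripts. All 5 complexes lie above 0.3 in C-178+CMA libraries 1 and 3 and at or below -0.3 in C-178 library 2, and short transcripts move the same way.

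With CMA alone, the question is how the chain genes respond to STING activation within 2 h. Few of them passed the test. Of the 86 members, 2 rose and 2 fell at an adjusted p under 0.05 (limma over all 11440 genes, Benjamini-Hochberg), with a median log2 change of -0.07. Of all genes tested, 19.4% were called higher and 17.9% lower. Of the 766 genes with short transcripts, 74 were called higher and 61 lower, and of the 47 members with such transcripts none was. In 11 members all 3 CMA libraries lay above all 3 unstimulated ones and in 19 below, where 31.0% and 30.9% of all genes tested did so. At an unadjusted p under 0.05 there were 3 members higher and 6 lower, beside 2673 and 2586 of all 11440 genes tested.

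Ndufs3, a core subunit in the matrix arm of complex I, rose. It had 194, 243 and 236 normalised counts in the unstimulated libraries and 376, 446 and 415 in the CMA libraries, so the groups lay apart. The log2 change was 0.88 ± 0.21 (SE; adjusted p = 0.00499, limma), and the call held in all 26 alternatives run, with adjusted p from 6.14e-06 to 0.0284. Of its 50-base stretches 39.7% occur elsewhere, 35.5% in the pseudogene Gm12251. Its start (GENCODE M21, mm10, chromosome 2, 90894634 to 90904827, minus strand) overlaps that of Kbtbd4 on the other strand by 88 bases. Kbtbd4 also rose, from 214, 213 and 199 to 405, 456 and 435 (log2 change 1.05, adjusted p = 3.34e-05, limma), and without the strand setting of the counting the shared bases cannot be assigned.

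The other 3 called members are assembly factors. Ndufaf6, needed for building complex I, had 28.1, 27.5 and 22.8 normalised counts without stimulation and 56.0, 35.5 and 42.2 with CMA, a log2 change of 0.73 ± 0.27 (adjusted p = 0.0485, limma). Its groups lay apart, but the call was lost in 11 of 25 alternatives. Among these were TMM scaling (adjusted p = 0.0522), depth as a term (0.412) and leaving out C-178 library 1 (0.0596), CMA library 1 (0.172) or 3 (0.0918), or unstimulated library 1 (0.0823), a (0.0953) or b (0.15). Atp5sl fell from 391, 394 and 376 to 280, 231 and 218, by 0.68 ± 0.16 on the log2 scale (adjusted p = 0.00445, limma), and was called in all 26 alternatives. Sdhaf1, which helps insert iron-sulfur clusters into complex II, fell from 87.4, 81.2 and 75.3 to 54.4, 31.6 and 34.9, by 1.03 ± 0.30 (adjusted p = 0.0141, limma). Its groups did not overlap, but E130208F15Rik runs through it on the other strand over 1733 bases, and the call was lost without CMA library 2 (adjusted p = 0.0648), CMA library 3 (0.0534) or unstimulated library 1 (0.051).

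Of the catalytic and defining subunits fixed for description, only Ndufs3, given above, was called with CMA. Ndufs1, which carries iron-sulfur clusters of complex I, had 716, 684 and 753 normalised counts without stimulation and 737, 815 and 791 with CMA (log2 difference 0.12 ± 0.11, adjusted p = 0.409, limma). Sdha had 2357, 2464 and 2327 against 2654, 2544 and 2507 (0.11 ± 0.11, adjusted p = 0.458), and Atp5a1 had 5209, 4756 and 4652 against 5422, 5625 and 5776 (0.20 ± 0.11, adjusted p = 0.161). In the last pair of genes every CMA library was above every unstimulated one, by less than the fit could call. Cox4i1 differed by 0.00 ± 0.22. Cox5a had the largest difference in size among the subunits fixed for description, with 1418, 1413 and 983 normalised counts against 620, 738 and 664 (log2 difference -0.90 ± 0.45, adjusted p = 0.135). Cox5a was at 1529 in the deep C-178 library and at 450 and 542 in the shallow ones, and at 2501 in the deep C-178+CMA library against 678 and 1004. The part of depth in its difference was not tested.

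All CMA libraries were shallow and all unstimulated ones deep, so depth and group cannot be told apart in this comparison except through the C-178 groups. With a depth term in the fit, the members' median was 0.16 and 4 rose and 3 fell; fitted on these 2 groups alone, 8 rose and 18 fell.

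C-178 alone asks whether the inhibitor changes resting cells. No member was called, where 0.0962% of all genes tested (11 genes) were called higher and 0.0% lower by limma. The members' median was -0.21, against -0.01 for all genes tested and -0.17 for genes with short transcripts. A positive difference was seen in 5 of 86 members, 5450 of 11440 genes tested and 158 of the 766 with short transcripts. At an unadjusted p under 0.05 there were 0 members higher and 3 lower, beside 238 and 182 of all 11440 genes tested. By adjusted p, edgeR and DESeq2 on recovered reads also called 0 members. In 7 members all C-178 libraries lay below all unstimulated ones (7.68% of all genes tested), in none above (7.87%).

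The 3 members with the smallest unadjusted p were Atp5g3, Ndufa5 and Cox8a. Atp5g3, 1 of the 3 genes for the c-ring of ATP synthase, had 1238, 868 and 780 normalised counts without stimulation and 810, 476 and 625 with C-178. The groups overlap, and the log2 difference was -0.60 ± 0.24 (adjusted p = 1, limma). Ndufa5, an accessory subunit of complex I, had 194, 202 and 225 against 172, 125 and 145, which do not overlap (-0.50 ± 0.20, adjusted p = 1), and Cox8a had 2079, 1642 and 1329 against 1529, 797 and 1148, which do (-0.57 ± 0.25, adjusted p = 1). In each of the 3 genes C-178 library 2 was the lowest. Without that library the members' median was -0.08, with array weights 1 rose and 19 fell, and with a depth term the median was -0.01.

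Adding C-178 to CMA asks whether the inhibitor changes the cells' state under the agonist. Here 14 of 86 members were higher with both compounds than with CMA alone and 0 were lower, beside 10.6% of all genes tested called higher and 13.5% lower (limma). The 14 members are 16.3% of all members. The members' median log2 difference was 0.40, against 0.00 for all genes tested and 0.30 for genes with short transcripts, of which 12.4% were called higher. The called members came from all complexes: 4 of 43 in complex I, 3 of 6 in complex II, 1 of 8 in complex III, 3 of 14 in complex IV and 3 of 15 in complex V. All 3 libraries with both compounds lay above all 3 CMA libraries in 19 members (17.0% of all genes tested), and below in none (18.5%).

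In complex II, 3 of the 4 subunits rose. The anchor Sdhd had 579, 626 and 619 normalised counts with CMA and 1389, 727 and 1140 with both compounds (log2 change 0.79 ± 0.20, adjusted p = 0.0149, limma). Sdhb had 1155, 928 and 1037 against 1499, 1239 and 2454 (0.68 ± 0.21, adjusted p = 0.0305), and the anchor Sdhc had 794, 813 and 721 against 1304, 872 and 1245 (0.53 ± 0.15, adjusted p = 0.0229). In each of them the groups lay apart, with library 2 the lowest of the C-178+CMA libraries. Sdha, which holds the succinate-binding site, differed by 0.07 ± 0.11 (adjusted p = 0.634), with 2654, 2544 and 2507 against 2880, 2546 and 2685.

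In complex III, Uqcr10, a small accessory subunit, showed the largest change of all called members. It had 259, 272 and 257 normalised counts with CMA and 744, 320 and 582 with both (0.98 ± 0.25, adjusted p = 0.0144, limma). The same order of libraries, with 1 and 3 high and 2 just above the CMA range, was seen in ATP synthase for Atp5g1 of the c-ring, with 168, 162 and 160 against 387, 221 and 374 (0.96 ± 0.24, adjusted p = 0.0127). Atp5j2, the f subunit in the membrane part, had 415, 373 and 417 against 1073, 477 and 740 (0.85 ± 0.23, adjusted p = 0.0177), and Atp5k, the e subunit that holds ATP synthase dimers together, had 229, 231 and 204 against 543, 260 and 388 (0.78 ± 0.21, adjusted p = 0.0176). The catalytic subunits Atp5a1 and Atp5b did not pass, with differences of 0.08 ± 0.11 and 0.35 ± 0.14 (adjusted p = 0.604 and 0.0861, limma).

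In complex IV the called members were Cox7a2, Ndufa4 and Cox6b1. Cox7a2 had 422, 355 and 442 normalised counts with CMA and 1023, 508 and 775 with both (0.87 ± 0.21, adjusted p = 0.0114, limma), and Ndufa4 had 508, 503 and 499 against 1187, 578 and 732 (0.66 ± 0.22, adjusted p = 0.0431). Both sets of libraries lay apart. Of the subunits fixed for description, Cox4i1 (0.48 ± 0.22), Cox5a (0.83 ± 0.45) and Cox6c (0.03 ± 0.16) did not pass, with adjusted p of 0.129, 0.184 and 0.9. In complex I the accessory subunits Ndufb8 (0.71 ± 0.24) and Ndufb7 (0.65 ± 0.21), the core subunit Ndufs8 and the assembly factor Atp5sl rose. Atp5sl had 280, 231 and 218 with CMA and 283, 308 and 437 with both, and it is a member that had fallen with CMA. The calls of Ndufb8, Ndufb7, Ndufs8 and Atp5sl were lost in 15, 12, 14 and 16 of 27 alternatives, and that of Ndufa4 in 14.

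These counts depended on the libraries and the fit. On these 2 groups alone 1 member was called; without CMA library 2 or 3 there were 3, without any 1 of the unstimulated libraries 9, without C-178+CMA library 1 or 3 there were 5 and 6, without C-178+CMA library 2 there were 48, without both number 1 libraries of the C-178 groups 7, with a depth term 9, with trends over length and GC removed 6, and with DESeq2 24.

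The comparison of both compounds with C-178 alone held the most calls; it asks what CMA does in cells given the inhibitor. Of 86 members 36 were higher with both and 0 lower, which is 41.9%, beside 13.5% of all genes tested called higher and 12.6% lower (limma). The members' median was 0.57, against 0.01 for all genes tested. Genes with short transcripts had a median of 0.38 with 24.4% called higher, against 20 of the 47 members with such transcripts. Among longer transcripts 12.8% of genes tested were called higher, and 16 of 39 members. The called members were 16 of 43 in complex I, 3 of 6 in complex II, 5 of 8 in complex III, 5 of 14 in complex IV and 7 of 15 in complex V. The groups lay apart upward in 25 members (16.8% of all genes tested) and downward in 1, Sdhaf2 (17.2%).

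Atp5k changed most. It had 168, 140 and 147 normalised counts with C-178 and 543, 260 and 388 with both compounds (log2 change 1.32 ± 0.21, adjusted p = 0.000376, limma), and even the lowest library with both was above all C-178 libraries. Cox7a2 had 390, 277 and 357 against 1023, 508 and 775 (1.12 ± 0.21, adjusted p = 0.00155), and Atp5j2 had 430, 321 and 336 against 1073, 477 and 740 (1.01 ± 0.23, adjusted p = 0.00532). Each of these 3 genes had separate groups, and Atp5k and Cox7a2 were called in all 28 alternatives, while Atp5j2 missed in 1, the fit on the 2 groups alone (adjusted p = 0.0524).

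**Figure D4:**
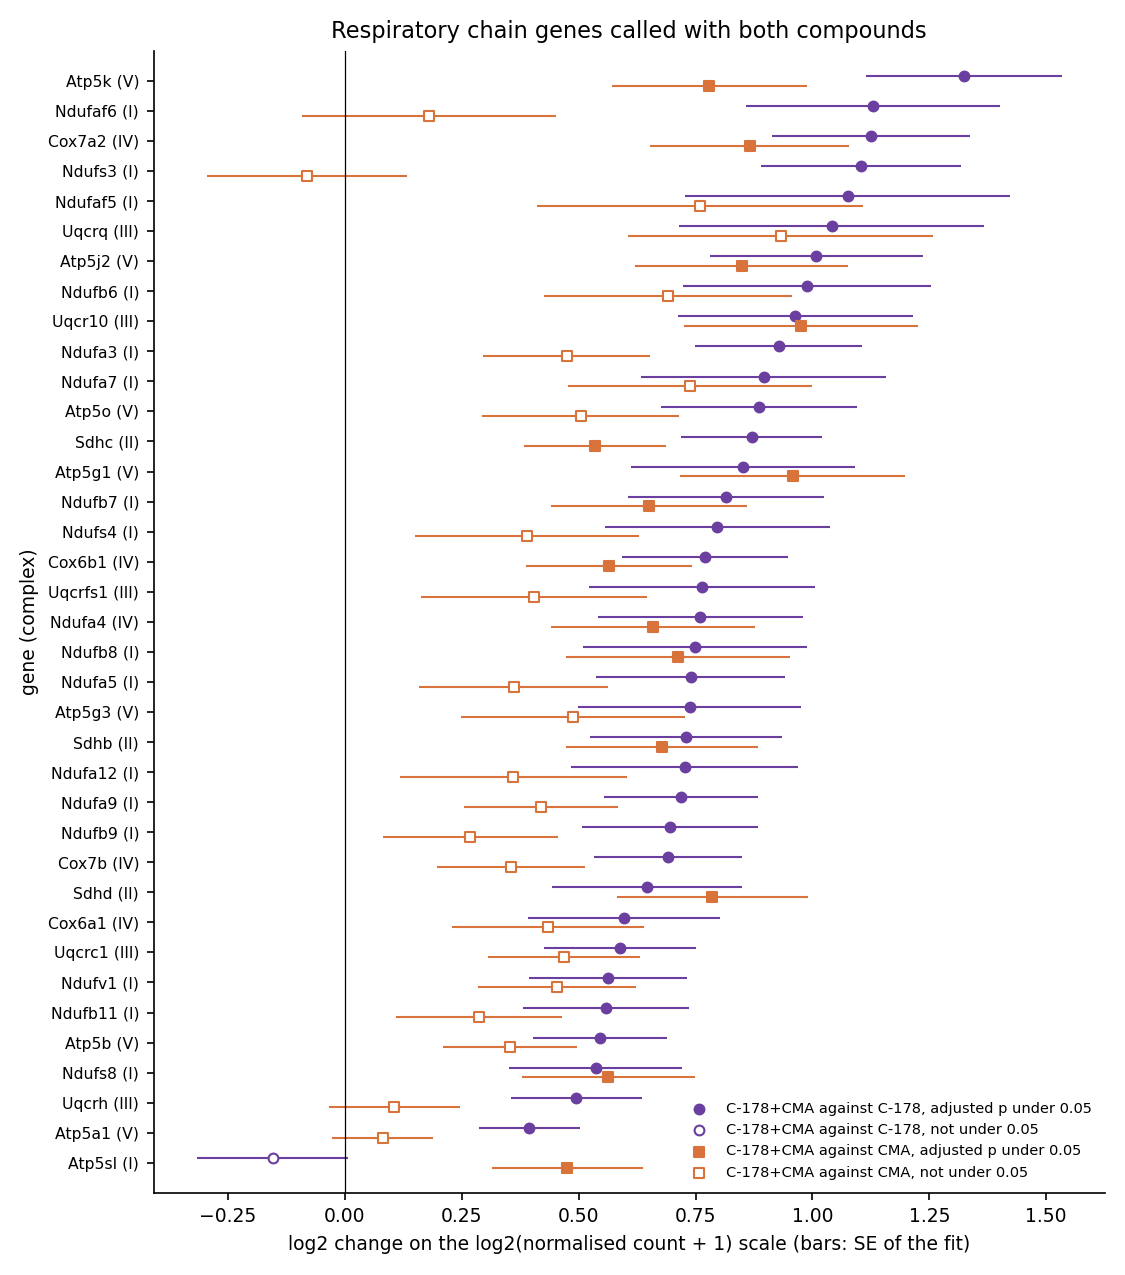
Log2 change with its SE for the 37 members called in either comparison of both compounds, against C-178 alone (circles) and against CMA alone (squares), filled where the adjusted p is under 0.05. The circles of 36 genes are filled and run from 0.39 for Atp5a1 to 1.32 for Atp5k; 14 squares are filled, 13 of them in genes with a filled circle. The 2 comparisons share the libraries with both compounds.

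In complex I, Ndufs3 had 232, 154 and 164 normalised counts with C-178 and 479, 273 and 449 with both (1.10 ± 0.21, adjusted p = 0.00185, limma), with separate groups. Its interaction did not pass (0.22 ± 0.30, adjusted p = 0.626), nor did its difference between both compounds and CMA (-0.08 ± 0.21, adjusted p = 0.798). Ndufa3, an accessory subunit, had 339, 245 and 346 against 546, 506 and 721 (0.93 ± 0.18, adjusted p = 0.00175), and it was called in all 28 alternatives. Its 3 libraries with both compounds lay above all 9 others. Ndufaf6 had 20.8, 18.1 and 29.1 against 41.8, 42.8 and 68.8 (1.13 ± 0.27, adjusted p = 0.00786). Ndufb6, of the membrane arm, had 114, 87.3 and 100.3 against 282, 116 and 241 (0.99 ± 0.27, adjusted p = 0.0146), and the assembly factor Ndufaf5, at 45.2, 15.1 and 30.5 against 68.3, 41.4 and 73.3 (1.07 ± 0.35, adjusted p = 0.0364), was lost in 13 of 27 alternatives. Ndufv1, which binds NADH, rose by 0.56 ± 0.17 (adjusted p = 0.0254, limma), and Ndufs1 differed by 0.10 ± 0.11 (adjusted p = 0.518). The call of Ndufv1 was lost with the replicate block (adjusted p = 0.058, limma). That fit treats same-numbered libraries as sets and also holds the CMA libraries.

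In complex III, Uqcrq had 380, 142 and 251 normalised counts with C-178 and 630, 301 and 625 with both (1.04 ± 0.33, adjusted p = 0.0316, limma), with overlapping groups, and Uqcr10 had 329, 205 and 276 against 744, 320 and 582 (0.96 ± 0.25, adjusted p = 0.0124), which overlap as well. The call of Uqcrq was lost in 7 of 28 alternatives and that of Uqcr10 in 2. Uqcrc1, the first core protein, rose by 0.59 ± 0.16 (adjusted p = 0.0173) and Uqcrfs1 by 0.76 ± 0.24 (adjusted p = 0.0334). In ATP synthase the catalytic pair was called here, Atp5b with 3879, 3147 and 3462 against 5437, 4005 and 6035 (0.55 ± 0.14, adjusted p = 0.013) and Atp5a1 with 4264, 4375 and 4917 against 5978, 5562 and 6266 (0.39 ± 0.11, adjusted p = 0.0167). The call of Atp5a1 was lost in 7 of 28 alternatives, among them the replicate block on the 2 groups alone (adjusted p = 0.0522, limma). Atp5o, the stalk subunit that confers oligomycin sensitivity, rose by 0.89 ± 0.21 (adjusted p = 0.00731). In complex II, Sdhc rose by 0.87 ± 0.15 (adjusted p = 0.000861), Sdhb by 0.73 ± 0.21 (0.0189) and Sdhd by 0.65 ± 0.20 (0.0324), and Sdha differed by 0.17 ± 0.11 (adjusted p = 0.263).

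In complex IV, Cox4i1 had 1815, 1668 and 1867 normalised counts with C-178 and 4085, 1785 and 2695 with both (0.60 ± 0.22, adjusted p = 0.0643, limma), and Cox6c differed by 0.43 ± 0.16 (adjusted p = 0.0705). The call count was 11 without C-178 library 2, 54 without C-178+CMA library 2 and 20 with trends over length and GC removed. On the 2 groups alone it was 5 without and 48 with the replicate block, which treats same-numbered libraries as pairs. Without both number 1 libraries it was 28, and without C-178+CMA library 3 it was 27 with 1 member lower.

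Some members stood apart in 1 library or in a few. Atp5e, the epsilon subunit of F1, had 864 normalised counts in C-178+CMA library 1 against 161 and 278 in the other two, and 111 to 232 in the 9 libraries of the other groups. Ndufa2 had 716 there against 130 and 222, and Cox7c 356 against 81.4 and 96.3. Cox7c was the 1 member of 86 with all 5 deep libraries above all 7 shallow ones (1.16%, beside 1.49% of all genes tested). In 0 members all 5 lay below (1.58% of all genes tested). The deep libraries are the unstimulated ones and library 1 of both C-178 groups, and the part of depth was not tested. Cox7a2l was low in library 1 of the C-178 and C-178+CMA groups, at 1747 and 1228, against 2132 to 3096 in the other 10 libraries. None of these 4 genes was called in the main limma fit over all 12 libraries, but some alternatives called them. For CMA against unstimulated, the fit on the 2 groups alone called Atp5e and Cox7c, and the fit with a depth term called Ndufa2 and Cox7a2l. For both compounds, edgeR and DESeq2 called Atp5e against CMA and against C-178. Ndufa2 was called for both against C-178 by edgeR, with a depth term and with the replicate block. All 4 genes were picked for description after their values were seen.

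Promoters of 4 members called higher with both compounds than with C-178 alone are shown so that motif matches can be read in their surroundings. They were picked by hand, 3 of them with a match, and do not represent the called members. Of 28 alternatives, the call was lost in 15 for Cox6a1, 4 for Ndufb6, 6 for Uqcrh and 2 for Uqcr10. Windows from 250 bases before to 50 after the start were taken from RefSeq (GRCm38.p6, the assembly of mm10) and existed for 73 of the 86 members, 3 of them under a newer symbol. Searched on both strands were a palindrome of 10 letters known for NRF1 (a factor of nuclear genes for mitochondrial proteins; its letters are the capitals in the Cox6a1 stretch), CCGGAAG, the core known for ETS factors such as GABP, and 10 letters known for YY1. The ETS and YY1 letters can share the bases AAG. The NRF1 letters were in the windows of 7 members (9.59%), against 1.07% of 27025 genes, the ETS letters in 18 (24.7%, against 9.93%) and the YY1 letters in 6 (8.22%, against 0.995%). The letters TATAAA were in 4 (5.48%, against 15.7%). The 27025 genes are all those with a RefSeq window, whether or not they passed the expression filter that the members passed. Shares among the genes tested alone were not computed. Any of the first 3 was found in 14 of 31 called members with a window (C-178+CMA against C-178) and in 14 of 42 members not called. A match is a run of letters, not a bound site.

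The stretches below run 5′ to 3′ on the strand of the gene, leave out bases annotated as transcribed, and have motif matches in capitals. Cox6a1 (chr5:115348982-115349129, minus strand) holds the NRF1 letters, Ndufb6 (chr4:40279422-40279671, minus strand) and Uqcrh (chr4:116075072-116075268, minus strand) hold the ETS letters on the other strand as CTTCCGG, and Uqcr10 (chr11:4704345-4704594, minus strand), which rose in both comparisons, holds none.
Cox6a1: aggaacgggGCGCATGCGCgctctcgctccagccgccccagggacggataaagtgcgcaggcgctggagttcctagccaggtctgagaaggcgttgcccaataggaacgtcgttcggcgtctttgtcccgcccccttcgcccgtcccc
Ndufb6: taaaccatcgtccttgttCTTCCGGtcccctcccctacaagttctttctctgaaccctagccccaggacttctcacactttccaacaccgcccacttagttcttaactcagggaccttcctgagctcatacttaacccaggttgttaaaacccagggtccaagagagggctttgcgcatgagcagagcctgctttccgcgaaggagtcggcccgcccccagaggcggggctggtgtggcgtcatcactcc
Uqcrh: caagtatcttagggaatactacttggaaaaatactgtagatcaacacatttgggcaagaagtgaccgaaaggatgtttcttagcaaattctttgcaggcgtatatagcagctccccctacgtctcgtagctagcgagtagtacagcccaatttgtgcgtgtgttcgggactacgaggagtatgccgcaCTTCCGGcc
Uqcr10: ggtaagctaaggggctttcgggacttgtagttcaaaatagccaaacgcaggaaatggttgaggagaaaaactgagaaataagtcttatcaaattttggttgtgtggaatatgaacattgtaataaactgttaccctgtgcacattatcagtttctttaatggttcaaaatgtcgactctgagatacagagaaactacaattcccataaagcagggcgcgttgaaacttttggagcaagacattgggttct

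The interaction asks whether the change with CMA differs between cells with and without C-178. In 6 of 86 members it was called positive and in 0 negative, beside 3.95% and 5.99% of all genes tested (limma). The members' median was 0.59, against 0.01 for all genes tested and 0.46 for genes with short transcripts, of which 4.44% were called positive. At an unadjusted p under 0.05 there were 36 of 86 members positive and 0 negative. Of all 11440 genes tested, 1681 were positive and 1915 negative at that limit, and of the 766 with short transcripts 213 and 29. The 6 are Atp5g1, Uqcr10, Atp5j2 and Cox7a2 with the anchors Sdhd and Sdhc, all also called in both comparisons of the pair of compounds, with which the interaction shares its libraries.

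For Atp5g1 the CMA libraries (168, 162 and 160 normalised counts) lay below the unstimulated ones (211, 236 and 229), while the libraries with both compounds (387, 221 and 374) overlapped those with C-178 (255, 130 and 164), since library 1 of C-178 exceeded library 2 with both. The interaction was 1.31 ± 0.34 on the log2 scale (adjusted p = 0.0306, limma). Uqcr10 also had all CMA libraries (259, 272 and 257) below the unstimulated ones (307, 339 and 365), with an interaction of 1.32 ± 0.35 (adjusted p = 0.0347). Sdhd was of the same kind, at 579, 626 and 619 with CMA and 677, 801 and 834 without stimulation (0.98 ± 0.29, adjusted p = 0.0468). For Sdhc the low group was C-178, at 658, 545 and 647 against 791, 692 and 755 without stimulation (0.81 ± 0.21, adjusted p = 0.0326).

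**Figure D5:**
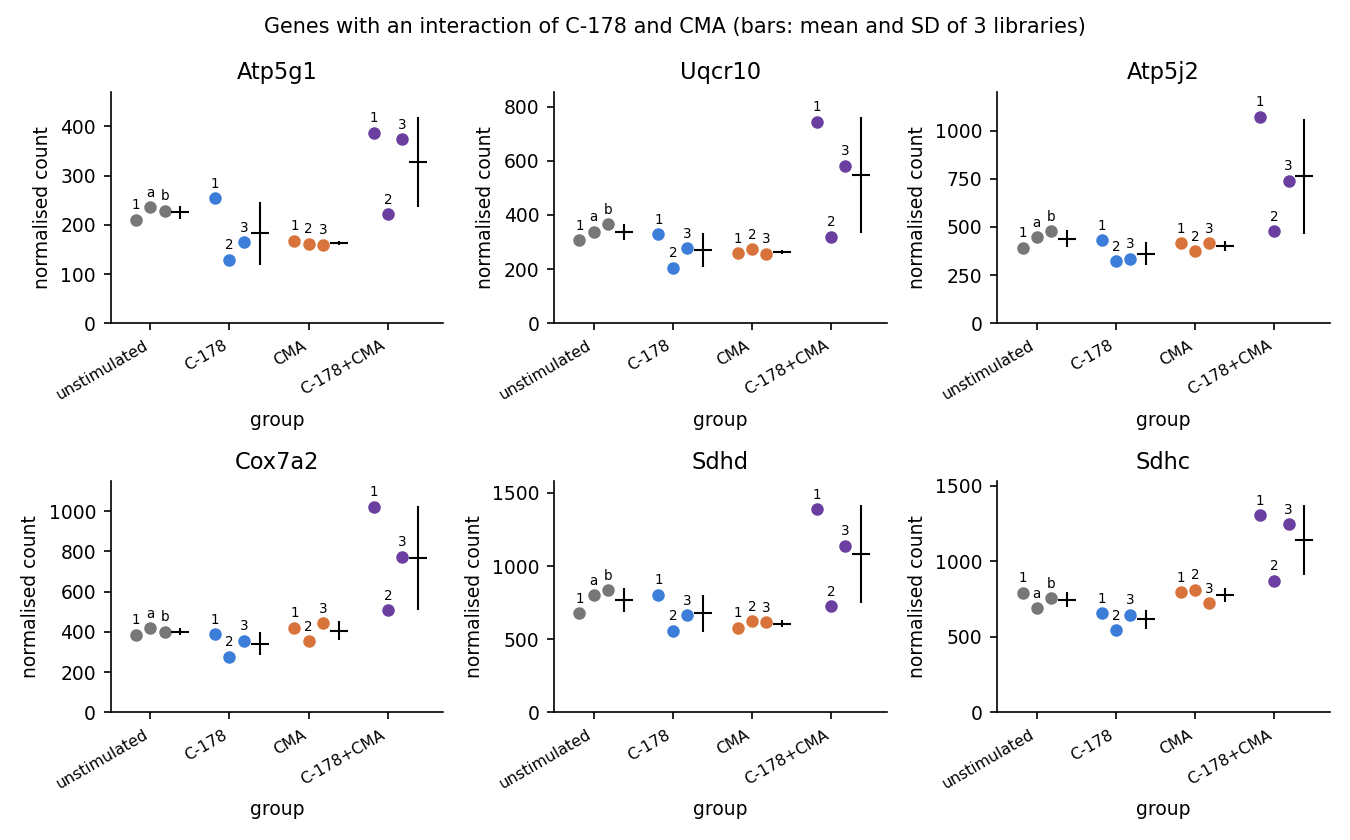
Normalised counts of the 6 genes with a called interaction in each of the 12 libraries (points, numbered by library), with mean and SD of the 3 libraries of a group beside them. In every gene C-178+CMA libraries 1 and 3 are the highest of all 12, and library 2 is the lowest of its group.

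None of the 6 calls held in all alternatives. With a depth term or without C-178 library 2 there were 0 called members, without C-178+CMA library 2 there were 46, with array weights 36, with DESeq2 19 and with trends over length and GC removed 2; without C-178 library 1 there were 16, and leaving out single CMA or unstimulated libraries gave 0 to 1.

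Cytochrome c1 and cytochrome c, which carry electrons in and after complex III and are not members by name, resembled the members in part. Cyc1 had 367, 428 and 384 normalised counts without stimulation, 447, 244 and 326 with C-178, 333, 397 and 347 with CMA and 790, 358 and 657 with both, and it was called higher with both than with C-178 alone (log2 change 0.79, adjusted p = 0.0375, limma), a call lost in 14 of 28 alternatives. Cycs had 140, 121 and 161, then 109, 136 and 105, then 173, 193 and 193, and 232, 203 and 344 with both (1.12 against C-178, adjusted p = 0.00086). For Cycs all libraries with CMA, alone or with C-178, lay above all others.

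Among the other lists, counts with CMA stand beside 19.4% of all genes tested called higher and 17.9% lower, and counts for C-178 added to CMA beside 10.6% and 13.5%; no list was tested against these shares. Of 21 tested assembly factors of complex IV, 5 rose and 0 fell with CMA, and 1 rose and 1 fell when C-178 was added. Cox18, an inner-membrane insertase for a core subunit of complex IV, had 53.2, 34.6 and 53.8 normalised counts without stimulation, 194.5, 191 and 207 with CMA and 137, 124 and 144 with both (2.07 with CMA, adjusted p = 8.77e-07, limma; -0.55 for both against CMA, adjusted p = 0.045, a call lost in 18 of 27 alternatives). Sco1, which delivers copper, rose by 1.39 (adjusted p = 4.43e-05). Of 14 complex I assembly factors, 7 of them members, 3 rose and 2 fell with CMA, among them Foxred1 at 286, 279 and 284 against 427, 533 and 455 (0.73, adjusted p = 0.000726) and Tmem186 at 106, 110 and 122 against 29.7, 51.3 and 34.9 (-1.55, adjusted p = 6.58e-05). Tmem186 is 1 of the 2 that rose when C-178 was added (1.01, adjusted p = 0.00608). Of 10 factors of complexes III and V, 1 rose with CMA, Tmem70 (1.22, adjusted p = 8.52e-05), and 3 rose and 1 fell when C-178 was added.

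Ubiquinone synthesis had 3 of 13 genes higher and 1 lower with CMA, beside 19.4% and 17.9% of all genes tested, with Coq2 at 154, 146 and 144 against 275, 308 and 334 (1.03, adjusted p = 0.000876, limma) and Coq10b (1.20, adjusted p = 0.00105). Of 19 genes of the citric acid cycle and pyruvate entry none was called with CMA or when C-178 was added to it, and 2 rose in both compounds against C-178, Fh1 (0.46, adjusted p = 0.0112) and Cs (0.37, adjusted p = 0.02; 0.0613 with the replicate block). Protein import had 2 of 23 genes higher and 3 lower with CMA, and the mitochondrial ribosome 2 of 77 higher and 6 lower. In both compounds against C-178, where 13.5% of all genes tested were higher and 12.6% lower, the mitochondrial ribosome had 20 higher and 0 lower with a median of 0.41, and import 7 higher and 0 lower with a median of 0.38.

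Of 15 regulators of mitochondrial genes, 5 were higher and 2 lower with CMA, beside 19.4% and 17.9% of all genes tested. Nrf1 had 223, 217 and 215 normalised counts without stimulation, 207, 264 and 228 with C-178, 419, 418 and 477 with CMA and 266, 263 and 275 with both. It rose by 1.00 with CMA (adjusted p = 2.49e-05, limma) and was lower by -0.71 with both than with CMA (adjusted p = 0.00208). Its interaction was -0.79 (adjusted p = 0.0174). For both against CMA and for the interaction its sign was opposite to that of the called members. For both against C-178 it was not, with a difference of 0.21 that did not pass (adjusted p = 0.245, limma). The part of Nrf1 in the members' changes was not tested. Yy1 fell with CMA, from 923, 819 and 807 to 402, 446 and 433 (-0.99, adjusted p = 4.15e-05), and was at 464, 518 and 639 with both (0.33 against CMA, adjusted p = 0.0853). Gabpb1, the partner of the ETS factor GABPA, was called lower with both than with CMA (-0.66, adjusted p = 0.0117).

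A list of inflammatory and stress genes had 6 of 13 higher and 0 lower with CMA, where 19.4% and 17.9% of all genes tested were called. Not all of them act on the chain itself, and Pdk1, for a kinase of pyruvate dehydrogenase, is among those called (1.01, adjusted p = 8.77e-06, limma). When C-178 was added, 0 of the 13 were higher and 6 lower, beside 10.6% and 13.5% of all genes tested. Irg1, which makes itaconate, an inhibitor of succinate dehydrogenase, had 174, 157 and 161 normalised counts without stimulation, 262, 223 and 150 with C-178, 26840, 49420 and 39090 with CMA and 4577, 6524 and 2923 with both (7.82 with CMA, adjusted p = 2.24e-10; -3.07 for both against CMA, adjusted p = 1.61e-05, limma). Nos2, the source of nitric oxide, rose by 6.64 (adjusted p = 1.42e-08). AA467197, which encodes the Ndufa4-like protein Nmes1, had 0, 1.2 and 1.9 without stimulation, 16.5, 31.6 and 14.7 with CMA and 6.0, 11.4 and 3.1 with both, and it rose with CMA by 3.48 on the log2(normalised count + 1) scale (adjusted p = 0.000212); with both against CMA it did not pass (-1.56, adjusted p = 0.058).

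For contrast, the vacuolar proton pump, a relative of ATP synthase outside the mitochondrion, had 2 of 15 genes higher and 4 lower with CMA, and 3 higher and 2 lower with both compounds against C-178, with a median of 0.25. Cytosolic ribosomal protein genes, short and abundant like the members, had 0 of 76 called with CMA (Rps6k kinases left out). With both compounds against C-178 they had 22 higher and 0 lower with a median of 0.50, and against CMA 4 higher and 0 lower with a median of 0.27.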

How the data were processed

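The authors deposited 1 table of normalised counts for 24062 entries, a signal per gene and library that, judged from the table's header, is a read count divided by 1 size factor per library in the manner of DESeq2. Per the submitters' processing notes, Bowtie2 2.2.1, limma 3.18.13 and the build mm10 were used. For the counting, the tool, annotation and strand setting were not given in the sources used here. Of all values, 100% were whole multiples of a library's smallest step (tolerance 0.01), which gave back the reads and the depth of each library. Another 12 columns, which hold Cook's distances, stayed unused.

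Values were tested as log2(normalised count + 1) with limma 3.58.1 (R 4.3.3; lmFit and eBayes with trend) over all 12 libraries, with group as the only term, for genes above 10 normalised counts in at least 3 libraries, and Benjamini-Hochberg adjustment over all 11440 of them. Fold changes of low genes are understated on this scale. edgeR 4.0.16 (quasi-likelihood) and DESeq2 1.42.0 on the recovered reads were alternatives, as were other scalings, filters, pseudocounts, thinned reads, array weights, removal of trends over length and GC, and leaving out each library. The scripts were tested on simulated data. The labels do not say whether replicate numbers pair libraries. In the data, same-numbered C-178 and C-178+CMA libraries deviated together (r across genes of 0.45, 0.43 and 0.26). Library 1 was the deep one in both groups, and the part of depth in this was not tested. Between CMA libraries and same-numbered libraries of the C-178 groups, r ran from -0.16 to 0.18. Unstimulated libraries were not checked. Lengths, overlaps and 50-base stretches came from GENCODE M21 and promoters from RefSeq.

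Named were up to 10 members with the largest rise and fall among those called per comparison, or the 3 with the smallest unadjusted p where none was called, with catalytic members, tissue isoforms, cytochromes, and up to 2 genes for each other list. The members and all lists were chosen with earlier results of these data known. Another member, counted in every total, is not reported here by itself.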

Additional observations from a re-analysis of the deposited data

Results flagged for a closer look

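In 6 members the change with CMA differed between cells with and without C-178 by a test of that difference itself (the interaction, limma over all genes, log2 scale, 3 libraries per group). They were Uqcr10 (1.32, adjusted p = 0.0347), Atp5g1 (1.31, adjusted p = 0.0306), Atp5j2 (1.14, adjusted p = 0.0421), Cox7a2 (1.11, adjusted p = 0.0347), Sdhd (0.98, adjusted p = 0.0468) and Sdhc (0.81, adjusted p = 0.0326). Each was higher with CMA in cells that had C-178 relative to cells that had not, and C-178+CMA libraries 1 and 3 were the highest of the 12 in each. Over their 25 alternatives the adjusted p ran from 0.00128 to 0.245 for Atp5g1, from 0.00134 to 0.214 for Sdhc, from 0.000763 to 0.271 for Uqcr10, from 0.00129 to 0.265 for Cox7a2, from 0.00107 to 0.314 for Atp5j2 and from 0.00157 to 0.329 for Sdhd.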

How the results depend on the processing

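No called member changed sign; the members' median with CMA, -0.07, became 0.16 with a depth term. With CMA, members called higher (2) and lower (2) became 10 and 23 with array weights, 8 and 18 on the 2 groups alone, 4 and 4 without trends over length and GC, and 1 and 1 with a filter above 100; TMM scaling, quantile normalisation or no filter gave 1 higher, and thinned reads 4 lower. With C-178, array weights gave 1 higher and 19 lower. For both compounds against CMA (14 higher), DESeq2 gave 24, array weights 22, no filter 9, length and GC 6 and the 2 groups alone 1. Against C-178 (36 higher), length and GC gave 20 and the 2 groups alone 5. For the interaction (6 higher), array weights gave 36, DESeq2 19, no filter 2 and length and GC 2. Shares over all genes tested are not given here for these alternatives, and the causes were not tested.

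Leaving out 1 library gave 1 to 3 higher and 1 to 3 lower with CMA, 0 with C-178, 3 to 48 for both against CMA, 11 to 54 higher and 0 to 1 lower against C-178, and 0 to 46 for the interaction. Member medians ran from -0.13 to -0.04, -0.31 to -0.08, 0.27 to 0.57, 0.44 to 0.72 and 0.45 to 0.79 in that order; without trends over length and GC the last 3 were 0.14, 0.28 and 0.24.

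Chosen after seeing the data, that depth term gave 4 higher for CMA, a median of -0.01 for C-178, 9 higher for both against CMA and 0 for the interaction. Leaving out both number 1 libraries of the C-178 groups gave 5 lower for CMA, 1 lower for C-178 (Cox5a), 7 higher for both against CMA and 10 for the interaction.

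With the replicate block 18 members were higher for both against CMA, where same-numbered libraries had r of -0.14, 0.18 and -0.16. Against C-178 there were 37, where Cox6a1 and Ndufv1 lost their calls and Atp5f1, Ndufa13 and Ndufa2 gained them. On these last 2 groups alone, also chosen after seeing the data, the block gave 48. At these depths a count of 0 over a group allows up to 0.656 (unstimulated) to 1.81 (CMA) normalised counts.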
